A study of Mus musculus with 18 samples.

Results

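The genes described here are 10 that encode smooth-muscle actins and proteins that sit on actin thin filaments, some of them widely expressed. They were read in mouse embryonic stem cells (mESCs) on gels of different stiffness. They are the transgelins Tagln and Tagln2, the muscle actins Acta2 and Actg2, caldesmon (Cald1), the tropomyosins Tpm1, Tpm2 and Tpm4, and the calponins Cnn1 and Cnn2. Members were picked by symbol through their Ensembl identifiers, which gave 10 of the 46078 gene rows, and each of the 10 was among the 13438 protein-coding genes tested. The set was selected on these same libraries, because its soft against stiff differences, its AHA differences on soft gels and the dependence of one on the other had already been seen. Those values are therefore given as a description, and the counts of genes called in them are no evidence about the set. Comparisons between AHA concentrations on stiff gels, and between mid and low AHA on soft gels, enter the dependence of one on the other, so they are not independent of the choice and are described in the same way.

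The cells were E14 mESCs, an established line on a 129 wild-type background, and every group was held for 24 h in medium with serum and LIF, the cytokine that keeps these cells self-renewing. They grew on polyacrylamide gels (StemBond) that carried fibronectin. Soft gels had a stiffness near 750 Pa and stiff ones near 160 kPa, and at each stiffness the co-factor AHA (6-acrylamidohexanoic acid), which sets how firmly the matrix protein is tethered, was 16 mM (low), 48 mM (mid) or 80 mM (high). Each of the 6 combinations had 3 libraries. No group was genetically altered or given a drug, and a single cell line was used.

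Thin filaments are helical polymers of actin. Tropomyosins are coiled-coil dimers that lie along the filament and govern which myosins and other binding proteins reach it, caldesmon and the calponins bind actin and restrain myosin ATPase activity, and transgelins are small calponin-related proteins that bundle or stabilise actin. In smooth muscle several of these genes are classical targets of SRF (serum response factor), which binds a short A/T-rich element called the CArG box. They are also targets of its cofactors, the myocardin-related transcription factors (MRTFs). MRTFs bind actin monomers and reach the nucleus when monomers are drawn into filaments. Outside muscle, many of the same genes are expressed at lower levels in stress fibres of spread cells.

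Gene counts per library ranged from 5850621 to 9290261. Mitochondrial genes made up 5.55 to 7.37% of them. At low AHA this share was 7.09 to 7.25% on soft and 6.73 to 6.79% on stiff gels, and at mid and high AHA soft and stiff libraries overlapped. Its part in the differences below was not tested. The share of ERCC spike-in RNAs was 0.607 to 0.725% in 17 libraries, but 1.37% in replicate 1 of soft, high AHA. That library was left out of the fits, so soft, high AHA had 2 libraries and every other group 3. Its values are given below beside the others. Libraries carried stem cell transcripts throughout, with Pou5f1 between 513 and 598 CPM (counts over protein-coding genes, brought to a common library size with TMM scaling). Smooth muscle markers outside the set were uneven in level. Myh11, smooth muscle myosin heavy chain, lay between 1.51 and 5.76 CPM, Myocd between 1.00 and 5.13 CPM, and Pln and Rgs5 under 1 CPM in every library of the fit, while the intermediate filament gene Des lay between 16.2 and 27.5 CPM and smoothelin (Smtn) between 101.3 and 132 CPM. Nothing in the sample descriptions says whether replicates were separate cultures, so p-values measure the spread between these libraries, which may be technical.

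Promoter letters are shown because the genes moved together and several of them share a textbook regulator. RefSeq windows of GRCm38.p6 were matched for 8 of the 10 genes, in 9 windows, since Cald1 had 2 start sites. Tagln and Actg2 had no window, so their promoters were not searched. The 250 bases before each start were searched on both strands for an exact CArG box. Cnn2, the calponin of non-muscle cells, was the 1 gene of 8 with an exact match, against 1.62% of all 27025 genes with a window. A CArG box with 1 of its 10 letters changed was found in 3 of the 8 genes, Acta2, Tpm1 and Cald1, against 19.9% of all genes, so such near matches are common by themselves. In each stretch below the capitals mark the exact or near CArG box, written 5′ to 3′ on the strand of the gene. The Cnn2 box began 56 bases before the start (chr10:79988524-79988573, plus strand), the Acta2 ones 84 and 34 bases before it (chr19:34255428-34255477 and chr19:34255378-34255427, minus strand), the Tpm1 ones 221 and 80 bases before it (chr9:67049405-67049454 and chr9:67049264-67049313, minus strand), and the Cald1 one 203 bases before it (chr6:34598281-34598330, plus strand).
Cnn2: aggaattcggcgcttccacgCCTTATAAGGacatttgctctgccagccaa
Acta2, far: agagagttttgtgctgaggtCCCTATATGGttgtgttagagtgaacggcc
Acta2, near: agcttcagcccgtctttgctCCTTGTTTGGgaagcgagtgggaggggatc
Tpm1, far: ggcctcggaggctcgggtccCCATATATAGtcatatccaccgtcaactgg
Tpm1, near: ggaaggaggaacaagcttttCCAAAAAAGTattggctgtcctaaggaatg
Cald1: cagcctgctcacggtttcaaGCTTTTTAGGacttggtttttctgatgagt
The letters GGAATG, which TEAD factors (the DNA-binding partners of YAP) recognise, were found on either strand in Acta2, Tpm1, Cald1 and Tagln2, 4 of 8 genes against 14.4% of all genes. The near Tpm1 stretch ends with them. The windows of Tpm2, Tpm4 and Cnn1 held none of these patterns. These are matches of letters in short windows, and binding was not measured.

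Per kilobase of exon, Tpm1 was the most abundant of the 10, with 126 ± 10.7 CPM per kb (SD, n = 8) on soft and 163 ± 7.39 CPM per kb (SD, n = 9) on stiff gels. A middle tier followed on stiff gels, made up of Tagln (113 ± 8.17), Tpm4 (86.7 ± 3.59), Tagln2 (86.0 ± 6.73) and Cnn2 (82.8 ± 4.05 CPM per kb), of which the last 3 did not differ beyond their spread. Acta2 (66.4 ± 4.36), Cald1 (58.3 ± 2.65) and Tpm2 (43.4 ± 3.18) came next, and Cnn1 stood at 10.1 ± 1.10 CPM per kb. Actg2, the gamma actin of gut smooth muscle, was at the edge of detection with 0.75 ± 0.53 CPM per kb. On soft gels Tagln (75.5 ± 12.8), Tagln2 (77.2 ± 5.29), Tpm4 (68.0 ± 6.58) and Cnn2 (66.0 ± 5.32 CPM per kb) followed Tpm1. The spread of Tagln, which pools the AHA groups, covered the means of the other 3. Tagln2 and Cnn2 were apart by more than the SD of each. By group, Tagln had 71.5 ± 4.25 at low, 66.5 ± 4.02 at mid (SD, n = 3) and 95.0 ± 5.36 CPM per kb at high AHA (SD, n = 2). Tagln2 (82.8 ± 2.11), Tpm4 (74.2 ± 11.2) and Cnn2 (71.3 ± 6.30) lay below it in soft, high AHA. Lengths are those of all annotated exons of a gene together, which for Cald1 (12041 bases) is far longer than any other member and lowers its value on this scale.

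Tagln, also called SM22 alpha, had the largest average difference of the members called. In soft, low AHA libraries it had 132, 146 and 148 CPM, in soft, mid AHA 129, 126 and 141 CPM, and in soft, high AHA 196 and 181 CPM, with 169 CPM in the library left out. On stiff gels it had 232, 259.6 and 219 CPM at low, 225, 203 and 228 CPM at mid and 209, 227 and 218 CPM at high AHA. No soft library reached a stiff one, and the soft, high AHA libraries lay between the remaining soft and the stiff ones. Its soft level was 60.0% of the stiff level at low AHA, 60.4% at mid AHA and 86.7% at high AHA. In log2 units the soft minus stiff difference was -0.73 ± 0.059 (SE) at low, -0.72 ± 0.059 at mid and -0.20 ± 0.064 at high AHA.

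Acta2, alpha smooth-muscle actin and the usual marker of myofibroblasts, followed the same layout. It had 85.3, 95.5 and 103 CPM in soft, low AHA, 85.5, 88.1 and 91.5 CPM in soft, mid AHA, and 123 and 124 CPM in soft, high AHA, where the library left out had 113 CPM. Stiff libraries had 137, 158 and 153 CPM at low, 156, 131 and 150.3 CPM at mid and 140.03, 138 and 149 CPM at high AHA. Soft and stiff libraries did not overlap. The log2 difference was -0.65 ± 0.069 (SE) at low, -0.72 ± 0.069 at mid and -0.21 ± 0.075 at high AHA, so at low AHA the soft level was 63.3% of the stiff one.

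Cald1 encodes caldesmon, which binds actin, tropomyosin and myosin. Its CPM were 452, 519 and 537 in soft, low AHA, 489, 533 and 502 in soft, mid AHA, and 649 and 649 in soft, high AHA, against 568 in the library left out. On stiff gels they were 708, 711 and 739.8 at low, 682, 628 and 714 at mid, and 712, 694 and 725 at high AHA. The soft, high AHA libraries overlapped the lowest stiff, mid AHA library but lay under every stiff, high AHA library. Differences were -0.52 ± 0.043 (log2, SE) at low, -0.41 ± 0.043 at mid and -0.13 ± 0.048 at high AHA.

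Tpm1, the most abundant tropomyosin here, had 741, 785 and 831 CPM in soft, low AHA, 773, 778 and 788 CPM in soft, mid AHA, and 937 and 908 CPM in soft, high AHA. The library left out, at 821 CPM, fell among the low and mid AHA libraries. Stiff libraries ranged from 983 to 1149 CPM and none overlapped a soft one. The log2 difference was -0.50 ± 0.037 (SE) at low, -0.39 ± 0.037 at mid and -0.18 ± 0.041 at high AHA. Tpm2, which encodes beta-tropomyosin, had 92.7, 97.9 and 89.2 CPM in soft, low AHA, 84.4, 78.2 and 91.0 CPM in soft, mid AHA and 113 and 112 CPM in soft, high AHA, with 102 CPM in the library left out. Its stiff libraries ranged from 115 to 139 CPM. It too showed no overlap of soft and stiff, with differences of -0.51 ± 0.071, -0.53 ± 0.071 and -0.14 ± 0.077 (log2, SE) at low, mid and high AHA.

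Tpm4, a tropomyosin of non-muscle and early smooth muscle cells, showed less of the step on soft gels. It had 140.5, 151 and 145 CPM in soft, low AHA, 138, 138 and 159.7 CPM in soft, mid AHA, and 181 and 146 CPM in soft, high AHA, with 168 CPM in the library left out. The 2 soft, high AHA libraries in the fit thus spanned most of the soft range. Stiff libraries lay between 182 and 204 CPM, above every soft one. Differences were -0.42 ± 0.061 at low, -0.38 ± 0.060 at mid and -0.21 ± 0.067 (log2, SE) at high AHA. The last value rested on single libraries, and among soft, high AHA libraries it was -0.39 with replicate 2 removed and -0.069 with replicate 3 removed.

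The calponins and Tagln2 had the smallest average differences. Cnn2 had 150.3, 167 and 173 CPM in soft, low AHA, 158, 148 and 152 CPM in soft, mid AHA, 186 and 165 CPM in soft, high AHA, and 159 CPM in the library left out. All its stiff libraries, from 192 to 218 CPM, lay above the soft ones, and the log2 difference was -0.37 ± 0.057 (SE) at low, -0.38 ± 0.057 at mid and -0.19 ± 0.063 at high AHA. Cnn1, the calponin of differentiated smooth muscle, had between 76 and 206 counts per library and spread widely. It had 21.3, 27.7 and 20.3 CPM in soft, low AHA, 19.4, 13.6 and 18.96 CPM in soft, mid AHA, 32.9 and 20.1 CPM in soft, high AHA, and between 23.4 and 31.1 CPM on stiff gels. The library left out, at 15.8 CPM, lay under both kept libraries of its group and under every stiff library. Its soft and stiff libraries were apart at mid AHA alone (-0.63 ± 0.15, log2, SE), and overlapped at low AHA (-0.29 ± 0.15) and high AHA (-0.056 ± 0.16). At high AHA the value was -0.48 when replicate 2 of the soft group was removed, 0.24 when replicate 3 was removed, and -0.64, past the threshold, with replicate 1 kept and replicate 2 dropped, so the Cnn1 difference there depended on which libraries were used.

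Tagln2, the widely expressed transgelin, had 148, 160.2 and 172 CPM in soft, low AHA, 163, 151 and 147 CPM in soft, mid AHA and 169 and 176 CPM in soft, high AHA, with 152 CPM in the library left out. Stiff libraries had 199, 187 and 194 CPM at low, 170.0, 167 and 189 CPM at mid and 169, 158 and 179 CPM at high AHA. The groups were apart at low AHA (-0.27 ± 0.059, log2, SE) and, narrowly, at mid AHA (-0.19 ± 0.059), and overlapped at high AHA (0.031 ± 0.066). Actg2 had 1 to 13 counts per library, 29 counts in all on soft and 56 on stiff gels, with 4 counts in the library left out. It passed the filter on low counts through 3 libraries, all of them stiff, so a direction was built into its presence, and its average difference of -0.94 ± 0.45 (log2, SE) was not called.

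**Figure D1:**
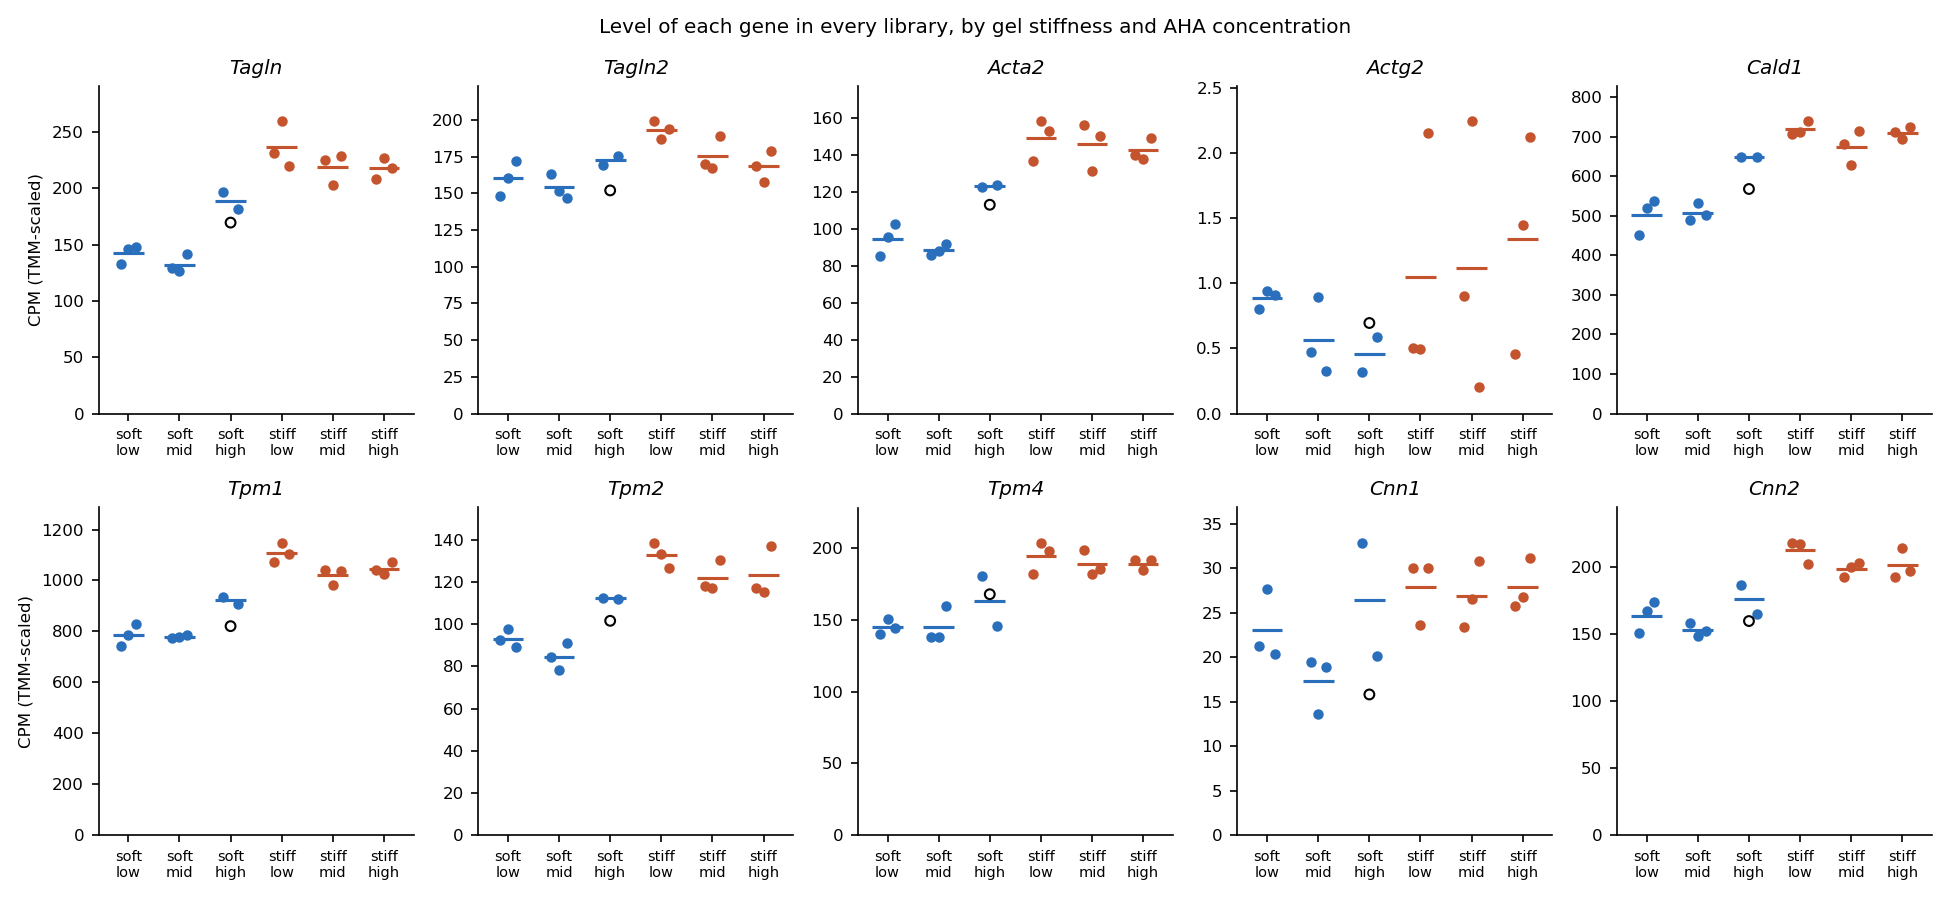
Level of each gene in CPM (counts brought to a common library size with TMM, linear axis from 0) in every library, grouped by gel stiffness (soft in blue, stiff in orange) and AHA concentration, with horizontal lines at group means. The hollow circle is the soft, high AHA library left out of the fit; Tagln sits between 126 and 148 CPM in soft, low and mid AHA, at 181 and 196 CPM in soft, high AHA and between 203 and 259.6 CPM on stiff gels.

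The stiffness difference was smaller at high AHA than at low or mid AHA in 9 of the genes, but its size there depended on single libraries in most of them. Besides Cnn1 and Tpm4, Tpm2 went to -0.055 without replicate 3 of stiff, high AHA and Cnn2 to -0.10 without replicate 3 of soft, high AHA. With replicate 2 of soft, high AHA exchanged for the library left out, replicate 1, Tagln and Cnn2 had -0.31, Tpm1 -0.28 and Cald1 -0.22. Actg2 was the exception, with -0.28 ± 0.70 (log2, SE) at low, -1.04 ± 0.74 at mid and -1.51 ± 0.87 at high AHA. A gene was called when its Benjamini-Hochberg adjusted p in edgeR's quasi-likelihood test was under 0.05. At low AHA 8 of the 10 genes were called lower on soft gels, as were 2.19% of all tested genes, and at mid AHA 8 were, as were 1.85% of all. The gene not called beside Actg2 was Cnn1 at low AHA and Tagln2 at mid AHA. At high AHA Tpm1 alone was called lower, beside 0.432% of all genes. Averaged over AHA, 9 were called, with Actg2 the exception, beside 4.82% of all genes. These shares come from the contrasts that the set was selected on, and nothing is read from them. The median log2 difference of the 10 genes was -0.46 at low, -0.47 at mid and -0.19 at high AHA, while the median of all tested genes stayed at 0.0042, -0.00071 and -0.0023.

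Averaged over AHA, the difference was -0.55 ± 0.035 (log2, SE) for Tagln and -0.53 ± 0.041 for Acta2. It was -0.39 ± 0.042 for Tpm2, -0.36 ± 0.022 for Tpm1, -0.35 ± 0.026 for Cald1 and -0.33 ± 0.036 for Tpm4. Cnn1 had -0.32 ± 0.088, Cnn2 -0.31 ± 0.034 and Tagln2 -0.14 ± 0.035. The Cnn1 value was -0.52 with replicate 2 of soft, high AHA exchanged for replicate 1, and -0.23 without replicate 3 of that group. Soft and stiff libraries of the whole series did not overlap in 6 of the genes, Tagln, Acta2, Tpm1, Tpm2, Tpm4 and Cnn2, and soft lay below stiff without overlap in 0.871% of all tested genes. The call at high AHA rested on single libraries. It was lost, leaving 0 members called, without replicate 3 of soft, high AHA (all genes 0.152%) or without replicate 3 of stiff, high AHA (0.164%), so calls fell across all genes in both fits. Without replicate 2 of soft, high AHA 2 members were called, beside 0.304% of all genes. With all 18 libraries 6 were called there, beside 1.37% of all genes tested. When replicate 1 of soft, high AHA was kept and replicate 2 or replicate 3 dropped, exchanges that were tried after the data had been seen, 7 and 4 were, beside 1.56% and 1.14% of all genes. The cell type behind these differences cannot be read from bulk RNA, in which fewer cells of a type and less RNA per cell cannot be told apart.

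**Figure D2:**
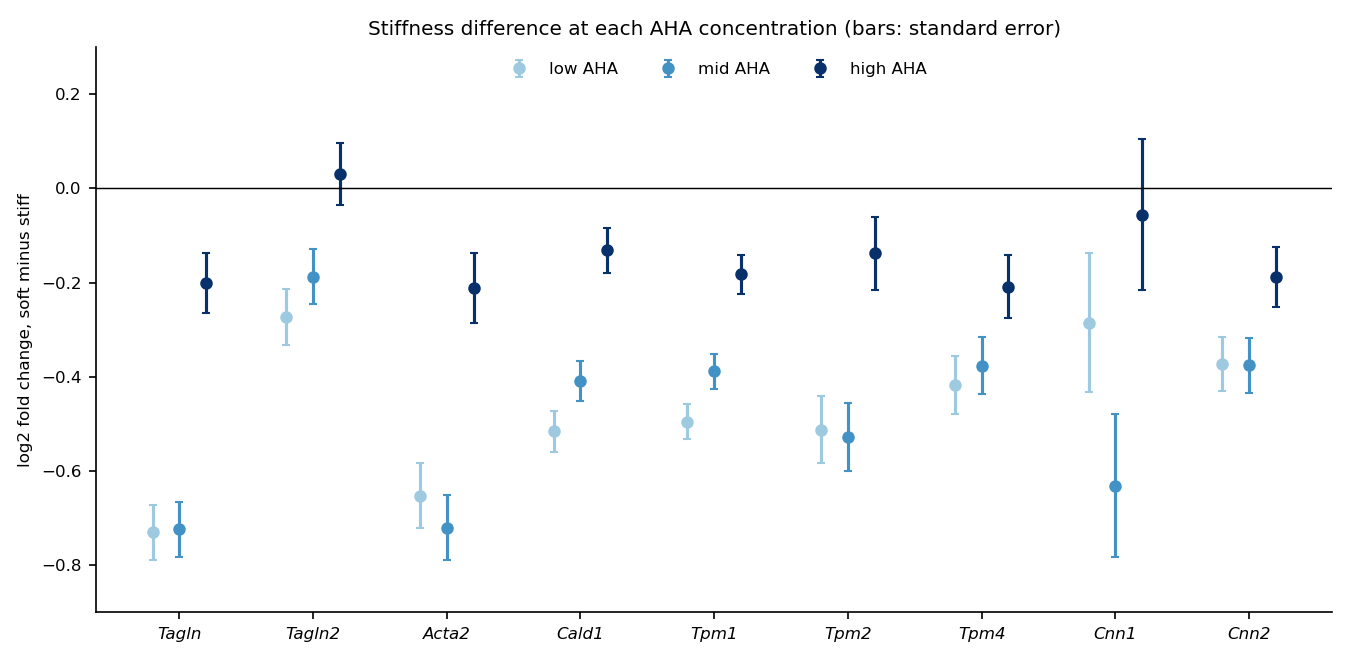
Soft minus stiff log2 fold change (vertical axis) of 9 genes at low, mid and high AHA (light to dark blue), with bars of 1 standard error; Actg2 is left out of the plot for its few counts. High AHA points lie nearest 0 for each gene, from -0.21 in Acta2 and Tpm4 to 0.031 in Tagln2.

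On soft gels the step between AHA concentrations lay between mid and high. From low to high AHA, 4 genes were called higher, as were 0.216% of all tested genes: Tagln (0.41 ± 0.066, log2, SE), Acta2 (0.38 ± 0.077), Cald1 (0.37 ± 0.048) and Tpm1 (0.23 ± 0.041). From mid to high AHA, 5 were called higher, beside 0.067% of all genes, which is 9 genes. They were Tagln (0.52 ± 0.065), Acta2 (0.48 ± 0.077), Tpm2 (0.41 ± 0.079), Cald1 (0.35 ± 0.048) and Tpm1 (0.24 ± 0.041). The remaining 4 of the 9 were Rplp1, Nes, Phldb2 and Krt19. With replicate 2 of soft, high AHA exchanged for replicate 1, Tpm1 had 0.14 and 0.15 in the 2 comparisons and was called in neither. The 2 comparisons share the soft, high AHA libraries, and both were known when the set was chosen. For mid against low AHA on soft gels edgeR called none of the 10 genes, with 1 at an unadjusted p under 0.05 and 0 called by DESeq2, beside 0% of all tested genes. That 1 was Cnn1, with -0.41 ± 0.15 (log2, SE). For Tagln the difference was -0.11 (95% interval -0.23 to 0.014), for Acta2 -0.099 (-0.24 to 0.043), for Cald1 0.013 (-0.074 to 0.099) and for Tpm1 -0.012 (-0.086 to 0.062).

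The soft, high AHA level rested on 2 libraries in the fit. In those, 5 genes (Tagln, Acta2, Cald1, Tpm1 and Tpm2) lay above all 6 libraries of soft, low and mid AHA, as did 5.22% of all tested genes. In the library left out, also 5 genes did, with Tpm4 in place of Tpm1, beside 16.8% of all genes. That library lay under every stiff library in 9 of the 10 genes and in 15% of all genes. Tagln at 169 CPM, Acta2 at 113 CPM, Cald1 at 568 CPM and Tpm2 at 102 CPM in it were each lower than in the other 2 libraries of the group. Without replicate 2 of soft, high AHA, the low to high comparison called Cald1 alone among the members, beside 0.0145% of all tested genes, and without replicate 1 of soft, low AHA it called Cald1 and Tagln, beside 0.0448%. Fewer genes were thus called in all, against 0.216% with both libraries in. From mid to high AHA, 3 members were called without replicate 2 of soft, high AHA, beside 0.0289% of all genes, and 2 with that library dropped and replicate 1 kept, beside 0.0298%.

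On stiff gels edgeR called none of the 10 genes for high against low, high against mid or mid against low AHA, nor did DESeq2. Unadjusted p-values under 0.05 numbered 3, 0 and 4. Of all tested genes 0.00744%, 0.00744% and 0% were called, which is 1, 1 and 0 genes. The widest high against low difference outside Actg2 was that of Tagln2, at -0.20 ± 0.059 (log2, SE), whose stiff, low AHA libraries lay above the stiff, high AHA ones. Tagln had -0.12 (95% interval -0.23 to -0.0083), Tpm1 -0.081 (-0.15 to -0.0088), Acta2 -0.062 (-0.19 to 0.068) and Cald1 -0.018 (-0.10 to 0.067). From low to mid AHA the member with the lowest unadjusted p was Tpm1, at -0.12 ± 0.037, in which no stiff, mid AHA library reached a stiff, low AHA one.

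**Figure D3:**
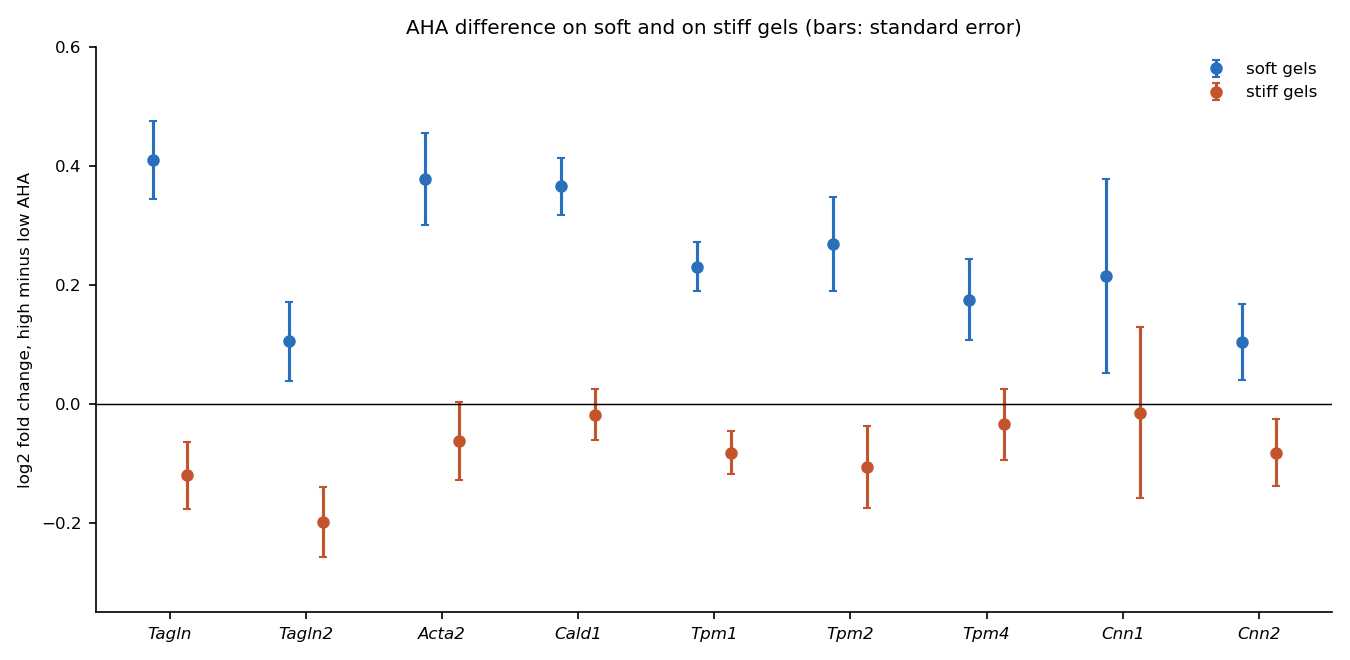
High minus low AHA log2 fold change (vertical axis) of 9 genes on soft (blue) and stiff (orange) gels, with bars of 1 standard error; Actg2 is left out of the plot for its few counts. Soft points lie above 0 and stiff points below 0 for each of the 9 genes, and Tagln (0.41 on soft, -0.12 on stiff) and Acta2 (0.38 and -0.062) are farthest apart.

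The AHA difference on soft gels less that on stiff gels was 0.53 ± 0.086 (log2, SE) for Tagln, 0.44 ± 0.10 for Acta2, 0.38 ± 0.064 for Cald1, 0.37 ± 0.10 for Tpm2, 0.31 ± 0.055 for Tpm1, 0.30 ± 0.088 for Tagln2, 0.23 ± 0.22 for Cnn1, 0.21 ± 0.091 for Tpm4 and 0.19 ± 0.085 for Cnn2. The last 3 rested on single libraries, since with replicate 2 of soft, high AHA removed Tpm4 had 0.035, with replicate 3 removed Tpm4 had 0.35 and Cnn1 0.52, and Cnn1 and Cnn2 had -0.36 and 0.066 with replicate 2 exchanged for replicate 1. Of the 9, Tagln, Cald1 and Tpm1 were called higher, beside 0.0446% of all genes, which is 6 genes, and the others of the 6 were Map1b, Phldb2 and Myof. An F test that the stiffness difference was equal at the 3 AHA concentrations called 4 genes of 13438, or 0.0298%, and they were Tagln, Cald1, Tpm1 and Acta2 in that order. Tpm2 stood at rank 19 and was not called. These ranks were among the reasons for choosing the set and are no test of it. With all 18 libraries 2 members were called in the F test, among 3 genes in all (0.0227%). With replicate 1 kept and replicate 2 dropped the F test called 2 members among 12 genes (0.0893%), so the list grew while the members in it fell, and with replicate 3 dropped instead it called 1 member among 2 genes (0.0148%). The AHA difference on soft less that on stiff gels then called 1 member in each case, beside 0.0595% and 0.0148% of all genes. Without replicate 2 of soft, high AHA alone, the F test called Cald1 and Tagln, among 5 genes (0.0361%).

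Within families, the share of each gene was computed from CPM per kb, so it also depends on the levels of the other genes. Among tropomyosins the shares of the 3 members overlapped between soft and stiff libraries at low AHA, with Tpm1 at 51.2 ± 1.61% (SD, n = 3) in soft, low AHA and 53.1 ± 0.068% (SD, n = 3) in stiff, low AHA, Tpm4 at 27.9 ± 0.62% and 27.5 ± 0.80%, and Tpm2 at 13.6 ± 0.75% and 14.2 ± 0.97%. At mid AHA Tpm2 was apart, at 11.99 to 12.97% on soft and 13.24 to 14.58% on stiff gels. Tpm3, a cytoplasmic tropomyosin outside the set, took 7.30 ± 0.29% in soft, low AHA and 5.17 ± 0.26% in stiff, low AHA, without overlap of the libraries there or at mid AHA, but its shares overlapped at high AHA (5.41 to 6.25% on soft and 5.18 to 5.60% on stiff gels). In the transgelins, Tagln took 46.7 ± 0.84% of the 3 transgelins in soft, low AHA, 45.9 ± 2.86% in soft, mid AHA, 52.3 ± 2.00% (SD, n = 2) in soft, high AHA and 55.0 ± 2.96% in stiff, low AHA, with Tagln2 taking most of the rest. Among calponins, Cnn2 took 52.6 ± 2.34% in soft, low AHA and 55.8 ± 1.89% in stiff, low AHA, and Cnn1 6.67 ± 0.86% and 6.60 ± 0.81%, with overlap of the libraries for both. At mid AHA neither overlapped, with Cnn2 at 50.31 to 51.12% on soft and 55.43 to 56.32% on stiff gels and Cnn1 at 4.22 to 5.71% and 6.11 to 7.58%. Among the 6 actins, Acta2 took 3.50 ± 0.26% in soft, low AHA and 4.75 ± 0.35% in stiff, low AHA, while beta-actin (Actb) took 93.8 ± 0.39% and 92.3 ± 0.23%. Counting of reads that fit several of the closely related actin genes and their pseudogenes could change these actin shares. Reads shared between Tpm4 and a copy described below could likewise change the tropomyosin shares, and neither was tested.

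**Figure D4:**
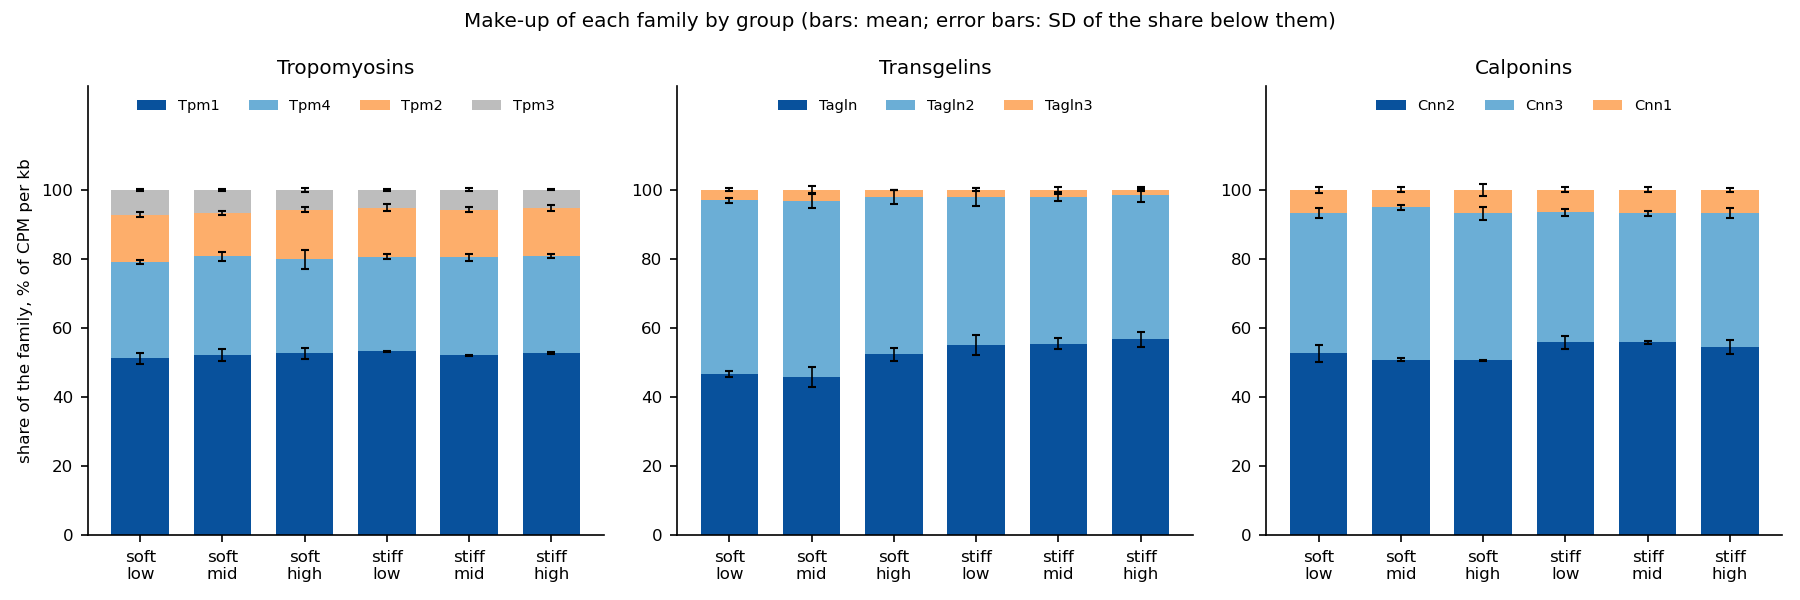
Share of each gene in its family (percent of CPM per kb, stacked bars from 0, group means with SD; n = 2 in soft, high AHA and 3 elsewhere) for tropomyosins, transgelins and calponins. Among tropomyosins Tpm3 takes 7.30% in soft, low AHA and 5.17% in stiff, low AHA, and Tpm1 51.2% and 53.1%. Tagln goes from 46.7% in soft, low AHA to 55.0% in stiff, low AHA of the transgelins.

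Close relatives of the members were looked at next. These lists were chosen with earlier results of these data known, so their counts are a description. Of 7 paralogs (Tagln3, Acta1, Actc1, Actb, Actg1, Tpm3 and Cnn3), 2 were called lower on soft gels in the average difference, the skeletal muscle actin Acta1 (-0.48 ± 0.075, log2, SE) and Actb (-0.18 ± 0.018), beside 4.82% of all genes, and the median was -0.055. Of 30 other thin filament and contractile genes, 26 passed the filter and 13 were called lower, beside the same 4.82%, with none called higher and a median of -0.23 against 0.0011 for all genes. Examples are Lmod1, a leiomodin that nucleates actin (-0.56 ± 0.15), the LIM-domain proteins of adhesions and stress fibres Lpp (-0.41 ± 0.037) and Zyx (-0.39 ± 0.037), and Pdlim7 (-0.38 ± 0.034). At high AHA 1 of the 26 was called lower, beside 0.432% of all genes, and the median was -0.073. Of SRF and 6 cofactors, 2 were called lower in the average difference (all genes 4.82%), the ternary complex factor Elk3 (-0.34 ± 0.098) and Srf itself (-0.11 ± 0.039), with a median of -0.11. In the AHA comparisons on soft gels edgeR called 0 of the 7, beside 0.216% (high against low) and 0.067% (high against mid) of all genes, with 0 at an unadjusted p under 0.05, and so small a list can show little there.

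Markers of other cell types, in lists chosen with the same knowledge, were summed per library. The 10 fibroblast markers came to between 128 and 162 CPM in soft, low and mid AHA. In soft, high AHA they came to 196 to 211 CPM and on stiff gels to 181 to 257 CPM. The members summed to between 1965 and 2219, 2480 and 2587, and 2642 and 3042 CPM. In both sums soft, high AHA lay above the other soft libraries. The fibroblast sum there fell within the stiff range, while that of the members lay below it. Most of the fibroblast sum was Col1a1 (-0.49 ± 0.085, log2, SE, averaged over AHA), the 1 gene called of the 8 that passed the filter (all genes 4.82%, as for the next 2 lists), while Dcn and Lum had at most 0.723 and 0.450 CPM in any library of the fit. Col1a2 was at 14.5 to 21.1 CPM in soft, low and mid AHA and 25.2 and 28.0 CPM in soft, high AHA. On stiff gels it was at 13.3 to 30.0 CPM. Col3a1 was at 7.34 to 10.4, 11.4 and 13.1, and 6.74 to 12.0 CPM in the same order. Of the 8 tested markers, 6 were higher and 2 lower at high than at low AHA on soft gels, with 0 called (all genes 0.216% called higher). At high AHA 4 were lower and 4 higher on soft than on stiff gels, with a median of 0.12. The 10 smooth muscle markers came to 153 to 168 CPM on soft and 175 to 198 CPM on stiff gels. Lmod1 and Smtn (-0.23 ± 0.040), both also in the list of contractile genes above, were called lower of the 8 tested. The 10 primitive streak, mesoderm and endoderm markers came to 70.2 to 99.5 CPM on soft and 80.6 to 100.2 CPM on stiff gels. Averaged over AHA, 4 of the 9 tested were lower and 5 higher on soft gels, with a median of 0.071. The 1 gene called was Hand1 (-0.30 ± 0.068). Stem cell markers went the opposite way, at 2298 to 2466 CPM on soft and 2090 to 2204 CPM on stiff gels, and 5 of 6 were called higher, beside 3.77% of all genes, among them Nanog (0.38 ± 0.040), Esrrb (0.35 ± 0.029), Sox2 (0.19 ± 0.029) and Zfp42 (0.17 ± 0.033). The part of any of these cell types in the members' differences was not tested.

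Over the 17 libraries, the genes most like the members in pattern were sought by the Pearson correlation of log2 CPM with the members' mean standardised level, among 9216 genes with a mean of at least 10 CPM. They were Phldb2 (r = 0.977), which encodes a protein of the cell cortex near adhesions, the intermediate filament gene Nes (r = 0.961), the actin crosslinker Actn1 (r = 0.958), the matricellular gene Thbs1 (r = 0.957) and the semaphorin Sema6a (r = 0.95). The points share their libraries and the 2-level stiffness layout, so these values describe likeness only. Phldb2, for example, had 88.0 ± 13.6 CPM (SD, n = 3) in soft, low AHA, 115 ± 6.50 CPM (SD, n = 2) in soft, high AHA and 148 ± 2.98 CPM (SD, n = 3) in stiff, low AHA.

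Tagln lies on the minus strand of chromosome 9 (45929619 to 45936058, GRCm38), and 67.9% of its 1988 exonic bases are overlapped by exons on the opposite strand. The antisense gene Gm48529 (45930112 to 45933738) covers 62.4% of them and has no row in the table used here. The protein-coding gene Pcsk7 (45906497 to 45929726), a proprotein convertase, covers 5.43%. The strand setting of the read counting was not given in the sources used here, so reads from Tagln and from the antisense strand cannot be told apart, and the Tagln values are uncertain to that extent. Pcsk7 had between 19.9 and 26.5 CPM in the 18 libraries, with a soft minus stiff difference of -0.057 ± 0.086 (log2, SE, edgeR adjusted p = 0.786). For the other members no opposite-strand exon overlap was annotated except in Tpm4 (6.08%, by Gm26586, at 0.363 to 2.56 CPM).

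Tpm4 also shares sequence with a copy. Of its transcripts' 50-base stretches, read on either strand, 15.7% occur in other genes, 4.13% in the opposite-strand Gm26586 and 11.7% in Gm7809, a processed pseudogene, which was looked at after its counts were seen. Gm7809 had 220 to 358 counts in the 8 soft and 225 to 371 in the 9 stiff libraries, or 48.3 ± 4.80 CPM (SD, n = 8) and 57.8 ± 4.15 CPM (SD, n = 9). Summed with Tpm4, the levels were 183 to 238 CPM on soft and 239 to 269 CPM on stiff gels, so the soft and stiff libraries stayed apart, by little. Gm7809 made up 21.6 to 27.5% of that sum on soft and 20.8 to 25.4% on stiff gels. Tagln shared 58.3% of such stretches, with Gm48529 and Pcsk7, the opposite-strand genes named above. Of the other members, Tagln2 and Acta2 shared under 1% of such stretches with other genes, and Actg2, Cald1, Tpm1, Tpm2, Cnn1 and Cnn2 shared none.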

How the data were processed

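Total RNA was sequenced in 18 libraries. The authors trimmed reads with Trim Galore 0.4.4, aligned them with GSNAP to GRCm38/mm10 and used HTSeq to count them per Ensembl gene. What they deposited were unnormalised counts. HTSeq summary lines, 61.5 to 64.0% of each column's sum, were left out. Symbols and coordinates came from GENCODE M21 (GRCm38), and promoter windows from RefSeq. After filterByExpr (minimum count 10), counts of protein-coding genes were TMM-scaled and modelled in edgeR 4.0.16 (R 4.3.3, robust quasi-likelihood, 1 coefficient per group, 17 libraries). The common dispersion gave a biological coefficient of variation of 5.35%. P-values were adjusted by Benjamini-Hochberg over 13438 genes, with calls at 0.05, and standard errors came from the F statistic. The library left out had an ERCC share over 1.5 times the median, after the study's practice of discarding such libraries. CPM are counts over protein-coding genes on a common, TMM-scaled library size. The fit was tested on simulated data.

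Members and lists were chosen with earlier results of these data known. Named were all members, genes with opposite-strand exons over at least 10% of a member, up to 4 called genes per list by size, and the 5 genes most like the members. Genes of call lists under 10 genes were named after their values were seen, and Pcsk7, Gm26586 and Gm7809 were added for the overlap of Tagln and Tpm4. Alternatives were RLE scaling, library size without TMM, DESeq2 1.42.0, a filter of 2 counts, all annotated genes, all 18 libraries, only the groups compared, and each library left out. The sample labels carried no replicate numbers shared between groups.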

Additional observations from a re-analysis of the deposited data

Results flagged for a closer look

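In fits across all tested genes, 4 of the members were called in a test of whether the AHA difference differed between soft and stiff gels. The high against low AHA difference on soft less that on stiff gels was 0.53 (log2) for Tagln and 0.44 for Acta2. For Cald1 it was 0.38 and for Tpm1 0.31. It was called for Tagln, Cald1 and Tpm1, beside 0.0446% of all tested genes, but not for Acta2. The F test over the 3 concentrations called all 4, beside 0.0298% of all genes. With replicate 1 of soft, high AHA kept and replicate 2 or replicate 3 dropped, that difference called 1 member in each case (0.0595% and 0.0148%). The members were chosen with this pattern known, so it has no independent test here.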

How the results depend on the processing

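No member value that was called in the main analysis changed sign under any alternative. Of the values not called there, Actg2, Cnn1 and Tpm4 changed sign most often, and 2 values were called under an alternative and had the opposite sign under another. These were Cnn1 for soft against stiff at high AHA (-0.64 with replicate 2 of soft, high AHA exchanged, 0.24 without replicate 3) and Tpm4 for high against low AHA on soft gels (0.32 without replicate 3, -4.4e-05 without replicate 2). The choice of soft, high AHA libraries mattered most. For soft against stiff at high AHA, 1 member was called in the main analysis (all tested genes 0.432%), 6 with all 18 libraries (1.37%), and 7 and 4 when replicate 1 of soft, high AHA was kept and replicate 2 or replicate 3 dropped (1.56% and 1.14%, exchanges tried after the data had been seen). For the F test the count of 4 (0.0298%) became 2 with all libraries (0.0227%) and 2 and 1 with those exchanges (0.0893% and 0.0148%). For the AHA difference on soft less that on stiff gels the count of 3 (0.0446%) became 1 and 1 with the exchanges (0.0595% and 0.0148%), and for high against mid AHA on soft gels the count of 5 (0.067%) became 2 with replicate 2 exchanged (0.0298%). Leaving out 1 library at a time gave 8 to 8 members at low AHA (all genes 1.44 to 2.25%), 7 to 9 at mid AHA (1.14 to 1.95%), 0 to 2 at high AHA (0.152 to 0.455%) and 8 to 9 in the average difference (3.93 to 4.76%). It gave 1 to 5 for high against low (0.0145 to 0.318%) and 3 to 6 for high against mid AHA on soft gels (0.0289 to 0.0866%), 3 to 4 for the AHA difference on soft less that on stiff gels (0.0224 to 0.0969%) and 2 to 4 in the F test (0.0217 to 0.0895%). Comparisons with no member called stayed at 0. Acta2 in the AHA difference on soft less that on stiff gels was not called in the main analysis (0.44, edgeR adjusted p = 0.0508). It was called under 9 of 26 alternatives, namely RLE scaling, the filter of 2 counts, only the groups compared and 6 of the 17 leave-one-out fits. Over all 26 its adjusted p ran from 0.0133 to 0.364. Each time the cause was not tested. No paired analysis was possible because the sample labels carry no replicate numbers that are shared between groups. The replicate numbers used here are the order of the samples within each group. Precision was limited in soft, high AHA, which had 2 libraries in the fit. Actg2 and Cnn1 had the lowest counts of the members, and Cnn1 also spread between libraries, with 102 and 206 counts in soft, high AHA.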
